A study of Mus musculus with 2 samples.

Results

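The miR-193 and miR-365 microRNAs (miRNAs) are made from a pair of related gene clusters, and 3 mature miRNAs of 1247 on the array (6 of 3101 probes) represent them here: mmu-miR-193a-3p, mmu-miR-193b-3p and mmu-miR-365-3p. They were chosen by name for the link of the miR-193b and miR-365 cluster to the cartilage transcription factor SOX9, with miR-193a as its close copy, and all 3 have probes. The sample labelled Col2a1Tsc1KO, with the genotype Col2a1; Tsc1 KO, was cartilage of the knee joint from males 8 weeks old carrying a deletion of Tsc1 specific to Col2a1, the gene of the main cartilage collagen. Specific to Col2a1 refers to cells in which that gene is active, and which cells lost Tsc1 was not measured here. Tsc1 restrains the growth kinase complex mTORC1, and the comparison asks which miRNAs change with mTORC1 as osteoarthritis develops. The control sample was the same tissue from males of the same age, with the genotype wildtype. Articular cartilage was peeled from the knee, washed and extracted for total RNA, which was labelled with a single dye (Cy3). There was 1 array per group, both on 1 slide, so genotype, sample and slide position cannot be told apart, and p-values are not possible, although the design text speaks of independent experiments. The number of mice behind each sample, the Cre line and the share of cells that lost Tsc1 are not given in the sources used here. A miRNA array cannot show Tsc1 itself.

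A miRNA is cut from a hairpin in a longer primary transcript, and its seed, bases 2 to 8, picks the mRNAs it represses. In mice miR-193b and miR-365 are made from a shared primary transcript, rise as brown fat cells form and hold back muscle genes in those cells, although mice lacking both still form brown fat. In chick cartilage cells miR-365 responds to mechanical strain and promotes maturation by repressing the histone deacetylase HDAC4. In human cells miR-193b-3p has been followed while mesenchymal stem cells turn into cartilage, and both miR-193 miRNAs are known as growth-restraining miRNAs in human cancers.

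The mature sequences, from RefSeq on mouse build GRCm38.p6, show why the 3 miRNAs fall into a pair with a shared seed and a single miRNA with its own. The seed is in capitals.
miR-193a-3p: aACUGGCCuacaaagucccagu
miR-193b-3p: aACUGGCCcacaaagucccgcu
miR-365-3p: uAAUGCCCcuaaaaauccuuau
The miR-193 miRNAs are identical at 19 of 22 bases and differ by U9C, A20G and G21C, with positions counted from the 5′ end and the base of miR-193a-3p given first. None of these 3 positions lies in the seed. Among 1679 mature mouse miRNA names in the RefSeq table, these were the 2 with the seed ACUGGCC, and miR-365-3p was the 1 name with the seed AAUGCCC.

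Each cluster holds a miR-193 hairpin followed by a miR-365 hairpin on the plus strand, printed with the 3p arm in capitals because that arm is what the 3 miRNAs are.
Mir193b: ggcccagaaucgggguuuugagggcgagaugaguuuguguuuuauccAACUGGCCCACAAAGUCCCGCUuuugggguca
Mir365-1: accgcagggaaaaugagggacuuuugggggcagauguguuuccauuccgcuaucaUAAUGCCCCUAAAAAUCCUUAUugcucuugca
Mir193a: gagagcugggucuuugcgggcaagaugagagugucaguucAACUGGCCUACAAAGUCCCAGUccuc
Mir365-2: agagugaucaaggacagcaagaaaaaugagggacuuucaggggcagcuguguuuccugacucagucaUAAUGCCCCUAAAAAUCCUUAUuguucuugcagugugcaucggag
Mir193b lies at chr16:13449523-13449601 and Mir365-1 at chr16:13453840-13453926, 4238 bases apart and both within the spans of the long non-coding RNA genes Gm32817 and Gm53058. Mir193a lies at chr11:79711969-79712034 and Mir365-2 at chr11:79726400-79726511, 14365 bases apart, with no annotated gene spanning either hairpin. The nearest protein-coding genes are Mrtfb and Parn around the chromosome 16 cluster and Rab11fip4 and Utp6 around the chromosome 11 cluster. The capital stretch of Mir365-1 and that of Mir365-2 are the same 22 bases. A signal of miR-365-3p therefore cannot be assigned to either cluster, whereas miR-193a-3p belongs to chromosome 11 and miR-193b-3p to chromosome 16.

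**Figure D1:**
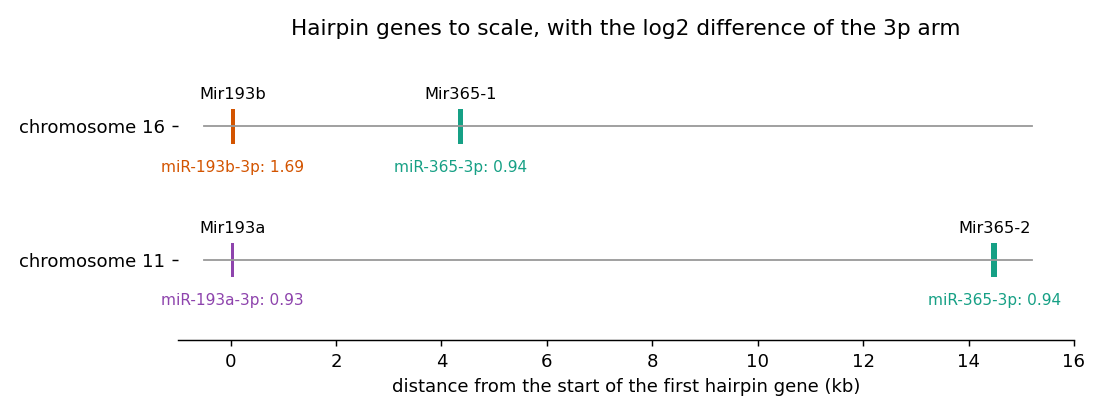
Map of both clusters to scale, with the distance from the start of the miR-193 hairpin gene in kb on the horizontal axis and a row per chromosome. Under each hairpin stands the log2 difference of its 3p arm, Col2a1Tsc1KO minus control (1.69 for miR-193b-3p, 0.93 for miR-193a-3p). The value of miR-365-3p, 0.94, stands under both of its hairpins because it is a single measurement.

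The array reads each of the 3 miRNAs with a pair of probes, printed as 20 spots each. Each probe pairs with the 3′ end of its miRNA, so its letters decide what is bound. Capitals mark the bases at which the miR-193 probes of equal length differ.
miR-193a-3p probe of 17 bases: aCTgggactttgtAggc
miR-193b-3p probe of 17 bases: aGCgggactttgtGggc
miR-365-3p probe of 22 bases: ataaggatttttaggggcatta
The miR-193 probes are 16 and 17 bases long, reach back to base 7 or 6 of the miRNA and differ from each other at 3 bases. Cross-binding between them was not tested. The miR-365-3p probes are 21 and 22 bases long and pair with nearly all or all of the miRNA.

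On the Col2a1Tsc1KO array 21.1% of miRNA spots were well above background by the scanner software's own mark, against 19.6% on the control array. Saturation was marked for none. The median over 1000 negative-control spots was 4.93 on the Col2a1Tsc1KO array and 5.02 on the control array. A probe counted as well above background when over 50% of its usable spots were so marked, which held on both arrays for 476 probes of 257 miRNAs. Differences are Col2a1Tsc1KO minus control on the log2 scale after setting the arrays to a common 75th percentile over those probes, and errors are standard errors (SE) over spots, which hold technical noise alone. Of the cartilage miRNAs, both arms of miR-140 and both of miR-455 were well above background on both arrays. Neither miR-1247-5p nor either arm of miR-675 was so on any array. Such detection cannot show that a sample was cartilage alone. After scaling, miR-140-5p was at 1046 and miR-140-3p at 1197 on the control array. There the leukocyte marker miR-223-3p was at 8163, the red cell marker miR-451a at 2308 and the muscle marker miR-1a-3p at 777. On the Col2a1Tsc1KO array these were 2713, 2403, 3632, 3380 and 406, in that order. Each miRNA is read by its own probes, so intensities of different miRNAs cannot be compared as amounts.

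All 3 miRNAs had more signal on the Col2a1Tsc1KO array, miR-193b-3p by 3.22-fold, miR-365-3p by 1.92-fold and miR-193a-3p by 1.90-fold, the last with a sign that turned under 1 of 14 alternatives. A difference above 0 was found for 40.9% of the 257 miRNAs measured. At least 2-fold higher was 1 of the 3, miR-193b-3p, where the share among all 257 was 15.6%, and none of the 3 was at least 2-fold lower, where that share was 17.5%. The median of all 257 was -0.22, and the median of the 3 was 0.94. With 1 array per group, no replicate error can be set beside these differences.

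mmu-miR-193b-3p, which in mouse brown fat cells lowers the corepressor gene Runx1t1, had the largest difference of the 3. Its probe of 16 bases gave intensities before scaling of 95.8 to 117 with a median of 109 over 15 usable spots on the Col2a1Tsc1KO array, against 19.8 to 28.3 with a median of 24.3 over 15 on the control array. Its probe of 17 bases gave 172 to 200 with a median of 185 over 20 spots on the Col2a1Tsc1KO array, against 35.9 to 52.8 with a median of 44.25 over 20 on the control array. For both probes the dimmest Col2a1Tsc1KO spot was over 3 times as bright as the brightest control spot before scaling. The ratios were 3.39 and 3.26, and 2.55 and 2.45 after scaling. Of the 476 measured probes, 29.2% had every scaled spot higher on the Col2a1Tsc1KO array than on the control array. The log2 difference after scaling was 1.72 ± 0.04 for the probe of 16 bases and 1.65 ± 0.04 for the probe of 17 bases (SE over spots). Their mean, 1.69 ± 0.03, ranked 6 among the 257 miRNAs. On the control array 14 of the 15 usable spots of the shorter probe were well above background, and all others of miR-193b-3p were so on both arrays.

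mmu-miR-365-3p, the seed-distinct partner of both clusters, was well above background in every usable spot on both arrays. Its probe of 21 bases gave intensities of 106 to 158 with a median of 140 over 17 spots on the Col2a1Tsc1KO array, against 44.3 to 68.7 with a median of 54.45 over 20 on the control array. Its probe of 22 bases gave 158 to 202 with a median of 172 over 15 spots on the Col2a1Tsc1KO array, against 57.1 to 75.3 with a median of 65.75 over 20 on the control array. After scaling, 29.2% of the 476 measured probes had every Col2a1Tsc1KO spot above every control spot. Both probes of miR-365-3p were among them, at ratios of 1.16 and 1.58 of dimmest Col2a1Tsc1KO spot to brightest control spot. Their spots did not overlap before scaling either. The log2 differences of the probes were 0.91 ± 0.05 and 0.98 ± 0.04, and their mean, 0.94 ± 0.03, ranked 43. It missed the 2-fold threshold of 1 narrowly: miR-195a-5p at 0.98 and miR-151-5p at 0.96 were the 2 miRNAs between that threshold and miR-365-3p.

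mmu-miR-193a-3p, the same-seed copy on chromosome 11, rests on a single measured probe. Its probe of 17 bases gave intensities of 49.3 to 79.8 with a median of 64.9 over 20 spots on the Col2a1Tsc1KO array, against 20.2 to 31.2 with a median of 24.3 over 19 on the control array. All 20 of these spots on the Col2a1Tsc1KO array and 16 of 19 on the control array were well above background. The log2 difference was 0.93 ± 0.06, at rank 44. The probe of 16 bases gave 11.8 to 23.5 with a median of 18.15 over 18 spots on the Col2a1Tsc1KO array, against 2.93 to 8.61 with a median of 5.76 over 15 on the control array. With 7 of 18 spots well above background on the Col2a1Tsc1KO array and 0 of 15 on the control array, it did not count as measured on either. Its control median was close to that of the negative-control spots.

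Every scaled spot on the Col2a1Tsc1KO array was above every scaled spot on the control array for all 5 probes that counted as measured, where this held for 29.2% of the 476 such probes. It held for the miR-193a-3p probe of 16 bases too, where the dimmest scaled Col2a1Tsc1KO spot was 1.03 times as bright as the brightest control spot. Spots of an array share a sample and are not replicates of a genotype.

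**Figure D2:**
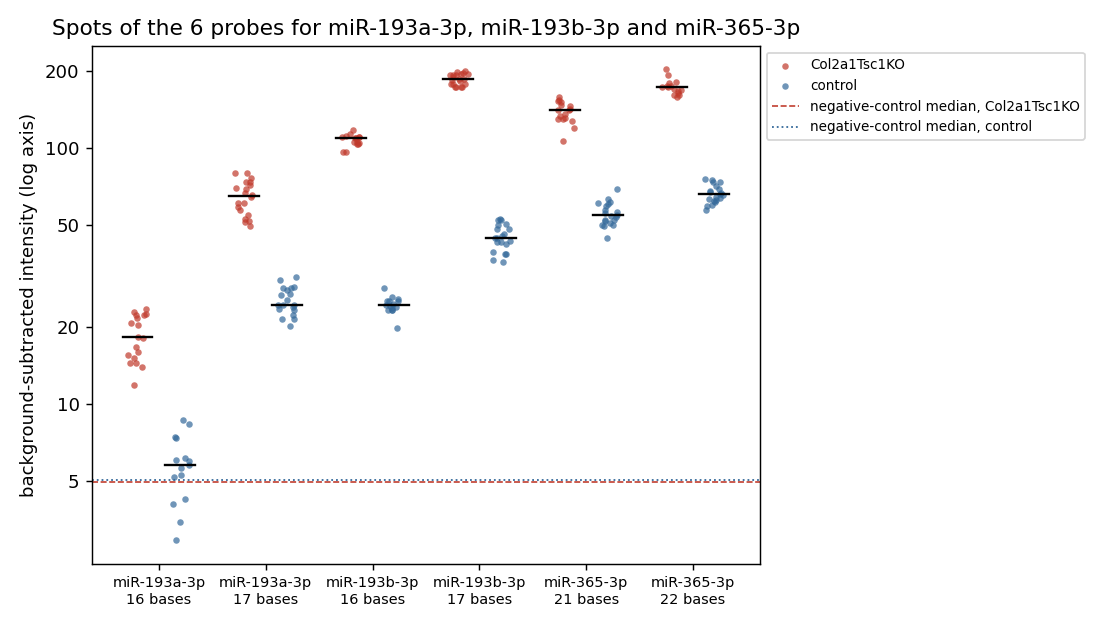
Background-subtracted intensity before scaling (log axis) of each usable spot of the 6 probes, on the Col2a1Tsc1KO array (red) and the control array (blue), with black bars at the medians and lines at the negative-control medians of 4.93 and 5.02. In each probe the spots of the arrays do not overlap, before scaling or after it. After scaling this held in the same direction for 29.2% of the 476 measured probes, and no such share was computed before scaling. The control spots of the miR-193a-3p probe of 16 bases lie around the negative-control level.

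Under the main setting the difference of miR-193b-3p stood above those of the other two, which lay close to each other. The log2 difference of miR-193b-3p exceeded that of miR-193a-3p by 0.76 ± 0.07 and that of miR-365-3p by 0.75 ± 0.04 (SE over spots). The gap between miR-365-3p and miR-193a-3p was 0.01 ± 0.07, less than its standard error. On these 2 arrays the cluster mates miR-193b-3p and miR-365-3p did not differ by the same amount. Neither did the same-seed pair miR-193b-3p and miR-193a-3p. No replicate error can be set beside these gaps. The miR-193a-3p probe of 16 bases, which did not count as measured, was at 1.29 ± 0.14. Relative to the median of all 257 miRNAs, a measure that a constant scaling cannot move, miR-193b-3p stood 1.90 higher, miR-365-3p 1.16 and miR-193a-3p 1.14. Under all 15 alternatives run over the whole array miR-193b-3p stood higher than the others that had a value, and miR-193a-3p had none under 1 of them. Median scaling, no scaling, spike-in scaling and a 75th percentile from all probes add a constant to every difference. Order and gaps could not change under those alternatives. The gap between miR-193a-3p and miR-365-3p was 0.22 or more under 4 of the 14 that gave both a value. In the deposited values miR-193a-3p was nearer to miR-193b-3p, 0.29 below it and 0.42 above miR-365-3p. It lay below miR-365-3p by 2.90 with total gene signals, by 0.48 with dim values at a floor and by 0.22 after normexp and quantile normalization.

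**Figure D3:**
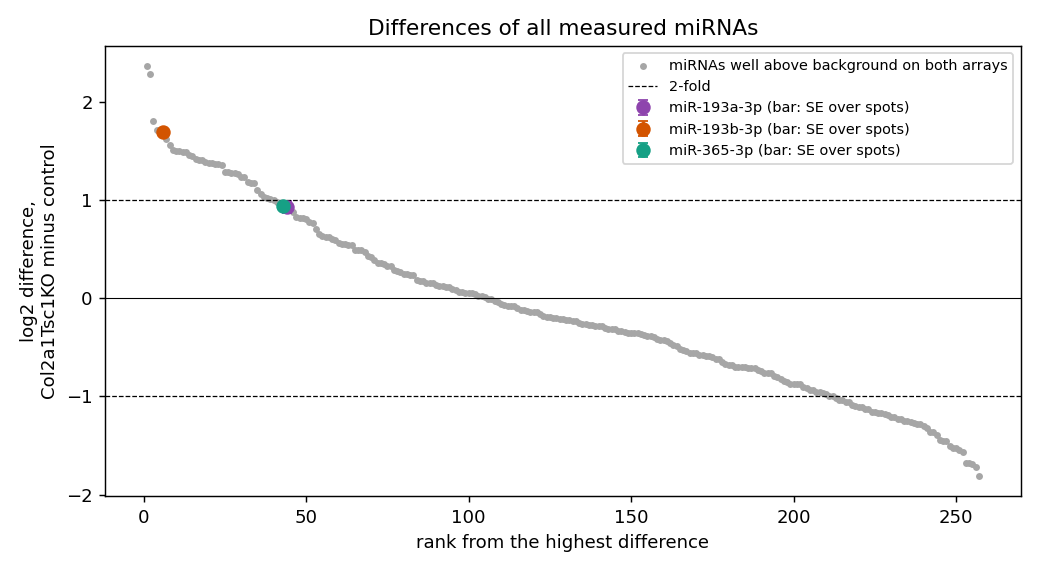
Log2 difference, Col2a1Tsc1KO minus control, of the 257 miRNAs well above background on both arrays, ordered from the highest. The coloured points are miR-193b-3p at rank 6, miR-365-3p at rank 43 and miR-193a-3p at rank 44, their SE bars lie within the symbols, and the dashed lines mark 2-fold.

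The scaling between the arrays and the background correction bear on whether miR-365-3p and miR-193a-3p pass the 2-fold threshold. With no scaling the differences were 2.10 for miR-193b-3p, 1.35 for miR-365-3p and 1.34 for miR-193a-3p, and with arrays scaled to 4 spike-ins they were 2.05, 1.31 and 1.29 in that order. All 3 passed the threshold under both, where 23% and 21.4% of all 257 miRNAs did. They also passed it in the deposited log2 values, at 1.80 for miR-193b-3p, 1.08 for miR-365-3p and 1.50 for miR-193a-3p, where 16.8% of 304 miRNAs did. After normexp background correction with an offset of 50 followed by quantile normalization, none of the 3 passed, at 0.92, 0.64 and 0.42, where 6.23% of all did. Quantile normalization without normexp gave 1.92, 1.12 and 1.16, and normexp without it was not run. With the software's total gene signal miR-193a-3p alone of the 3 turned negative, at -1.46. That total was 32.6 on the Col2a1Tsc1KO array, where the totals of its probes also sum to 32.6, and 94.4 on the control array, where they sum to 12.2.

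**Figure D4:**
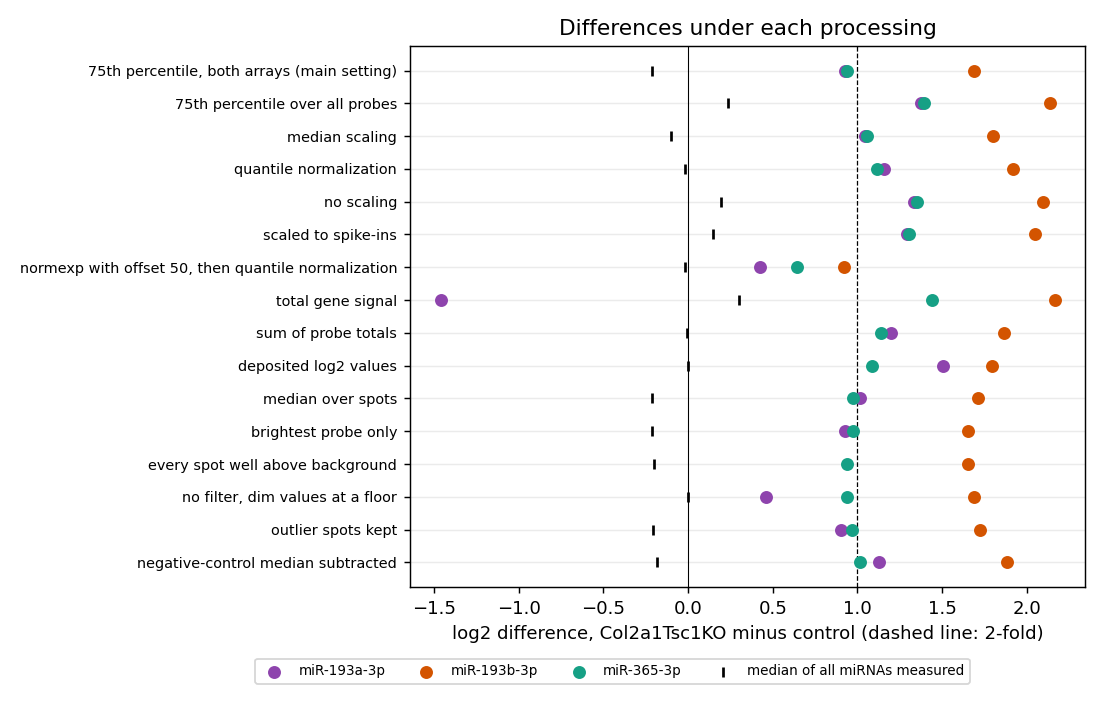
Log2 difference, Col2a1Tsc1KO minus control, of the 3 miRNAs under the main setting (top row) and 15 alternatives, with short black bars for the median of all miRNAs measured and a dashed line at 2-fold. miR-193b-3p lies to the right of the others with a value in each row, and miR-193a-3p is below 0 in the row for the total gene signal, at -1.46. miR-193a-3p has no value where every spot had to be well above background.

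The 5p arms of the same hairpins are the strands that usually decay, and their sequences differ between the miR-365 hairpins, so they could in principle tell the clusters apart. The seed is in capitals.
miR-193a-5p: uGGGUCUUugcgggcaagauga
miR-193b-5p: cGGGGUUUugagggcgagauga
miR-365-1-5p: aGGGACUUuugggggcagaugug
miR-365-2-5p: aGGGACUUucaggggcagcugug
None of their 10 probes was well above background on either array, and 1 of 151 usable spots on the Col2a1Tsc1KO array and 1 of 155 on the control array were so marked. For miR-365-1-5p, from chromosome 16, the probes had medians of 11.85 and 10.2 on the Col2a1Tsc1KO array, against 14.5 and 13.1 on the control array. The medians of miR-365-2-5p, from chromosome 11, were -0.80 and -2.67 on the Col2a1Tsc1KO array, against -0.29 and -1.61 on the control array. All medians of miR-193a-5p and miR-193b-5p were below 0 on both arrays. No fold is given for these arms, and the cluster that gave the miR-365-3p signal was not detectable from them. The hairpin gene of miR-6365, named for its position alone, lies on chromosome 16 within 50 kb of the Mir193b and Mir365-1 cluster. miR-6365 was not well above background in any usable spot on either array.

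**Figure D5:**
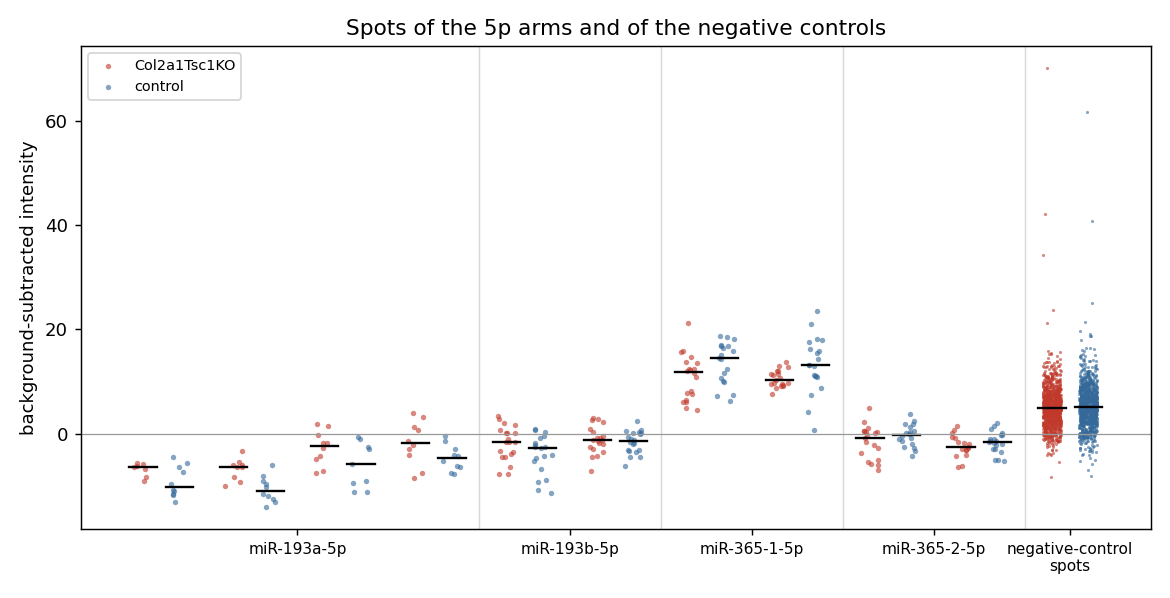
Background-subtracted intensity of each usable spot of the 10 probes for the 5p arms, and of 1000 negative-control spots per array, on the Col2a1Tsc1KO array (red) and the control array (blue), with black bars at the medians. The medians of miR-193a-5p, miR-193b-5p and miR-365-2-5p lie below the negative-control medians of 4.93 and 5.02, and those of miR-365-1-5p lie between 10.2 and 14.5.

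The 3 miRNAs with the differences nearest to that of miR-193b-3p over the 2 arrays were miR-196b-5p at 1.69 ± 0.03, a miRNA of the Hox gene clusters, miR-455-3p at 1.71 ± 0.05, a cartilage miRNA, and let-7e-5p at 1.62 ± 0.02. Nearest to miR-365-3p were miR-151-5p at 0.96 ± 0.02, miR-130a-3p at 0.91 ± 0.01 and miR-195a-5p at 0.98 ± 0.02. Nearest to miR-193a-3p were miR-130a-3p, miR-151-5p and miR-30a-5p at 0.88 ± 0.03. None of these differences changed sign under the alternatives.

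Other cartilage miRNAs stood on the same side with 1 exception. Of the 7 listed, 4 counted as measured on both arrays, with 3 past 2-fold toward the Col2a1Tsc1KO array and none past it the other way. The shares over all 257 miRNAs were 15.6% and 17.5% in that order. The median of the 4 was 1.19, beside -0.22 over all 257. miR-455-3p was highest. The other arm of its hairpin, miR-455-5p, was lowest at -0.03 ± 0.14, a sign that turns under 11 of 14 alternatives, most scalings included. Under the alternatives the count at least 2-fold higher ran from 0 to 3. miR-1247-5p and both arms of miR-675 did not count as measured on either array.

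The brown fat miRNAs that share a background with miR-193b and miR-365 stood on both sides. Of the miRNAs reported to promote brown or beige fat cells, 5 of the 8 with probes were measured, 2 were at least 2-fold higher and none lower by that much, with a median of 0.60. Over all 257 miRNAs these shares were 15.6% and 17.5%, and the count of 2 ran from 1 to 4 under the alternatives. The highest was again miR-455-3p, followed by miR-196a-5p at 1.50 ± 0.03, which in mice drives beige fat through Hoxc8. The lowest was miR-378a-3p at -0.12 ± 0.02, which turns positive under 8 of 15 alternatives, no scaling and spike-in scaling among them. Of the miRNAs reported to restrain brown fat, 8 of 8 were measured, 3 were at least 2-fold higher and none at least 2-fold lower, with a median of -0.0015 whose sign turns under 12 of 15 alternatives. Under the alternatives 1 to 3 of them were that much higher and 0 to 2 that much lower. The highest was miR-34a-5p at 2.28 ± 0.04, and the lowest was miR-133b-3p at -0.996 ± 0.017, a muscle miRNA that in mice represses the brown fat regulator Prdm16. Of the 5 miRNAs listed for white and brown fat cells, 4 were measured, from miR-378a-3p up to miR-143-3p at 1.37 ± 0.02, with a median of 0.53.

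Summed levels of markers of other cell types differed between the arrays, some higher and some lower on the Col2a1Tsc1KO array, and their part in the differences of the 3 miRNAs was not tested. In such bulk tissue, fewer cells of a type and less miRNA per cell cannot be told apart. For the counts past 2-fold below, the shares over all 257 miRNAs were 15.6% higher and 17.5% lower. The scaled intensity summed over the 4 chondrocyte markers, the same as the 4 measured cartilage miRNAs, was 5268 on the Col2a1Tsc1KO array and 2322 on the control array, and 3 of the 4 were at least 2-fold higher. Over the 4 skeletal muscle markers it was 737 on the Col2a1Tsc1KO array and 1410.4 on the control array, with a median difference of -0.97. None of the 4 was at least 2-fold lower, a count that ran from 0 to 2 under the alternatives, with miR-133b-3p at -0.996 and miR-133a-3p at -0.995 next to the threshold. The muscle marker miR-206-3p was at 0.05 ± 0.08, a sign that turns under 2 of 14 alternatives. Over the 5 leukocyte markers it was 4494 on the Col2a1Tsc1KO array and 9669.95 on the control array, most of it miR-223-3p, at 3632 on the Col2a1Tsc1KO array and 8163 on the control array. That miRNA, at -1.17 ± 0.01, was the 1 of 5 at least 2-fold lower, a count that ran from 0 to 2 under the alternatives. On the other side of 0 were 2 of the 5, miR-155-5p at 0.15 ± 0.06 and miR-150-5p at 0.64 ± 0.06, a sign that turns under 1 of 15 alternatives for miR-150-5p. Over the 2 measured of 3 fat cell markers the sum was 236 on the Col2a1Tsc1KO array and 144 on the control array. At least 2-fold higher was 1 of them, miR-143-3p, a count that ran from 0 to 1 under the alternatives. The third, miR-378a-5p, was not well above background on either array. Over the 2 measured of 4 red cell markers with probes the sum was 3472 on the Col2a1Tsc1KO array and 2340.4 on the control array. Most of it was miR-451a, at 0.55 ± 0.01, a sign that turns under 2 of 15 alternatives. At least 2-fold higher was 1 of the 2, miR-144-3p, a count that ran from 0 to 2 under the alternatives. Over the 2 endothelial markers the sum was 1977 on the Col2a1Tsc1KO array and 1555 on the control array, with neither past 2-fold. Most of it was miR-126-3p, at 0.35 ± 0.01, a sign that turns under 2 of 15 alternatives. None of the 4 epithelial markers and not the liver marker miR-122-5p was well above background on either array.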

How the data were processed

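Total RNA of 2 samples was hybridised to 1-colour Agilent mouse miRNA arrays of 52044 spots. The deposited intensity of each spot came from Agilent Feature Extraction 10.7, as the submitters' processing notes name it. It is background-subtracted with spatial detrending and not scaled between arrays, per the file headers. The authors also deposited log2 values per miRNA, with no account of their making in the sources used here. Their differences correlated with those of the summed probe signals at r = 0.89 across 304 miRNAs, in the same direction. Column medians, which are also the floors, were -3.32 for Col2a1Tsc1KO and -3.26 for control, and their centring is not known.

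Outlier spots were dropped, log2 intensities were averaged over the spots of a probe, arrays were scaled by the 75th percentile of their measured probes, and differences were averaged over the probes of a miRNA well above background on both arrays. Scaled intensities refer to the mean of both percentiles. No test was possible with 1 array per group, and an absolute log2 difference of 1 served as a threshold for counts. Intensities under 0.1 were set to 0.1 before logs. The steps were tested on simulated data. Named were the 3 members, their 5p arms, the 3 miRNAs nearest to each in difference, and the highest and lowest of each list. Others in the lists were named after their values were seen. The members and lists were chosen with earlier results of these data known. All 7 names of members and 5p arms matched RefSeq. miR-378-3p and miR-486-5p, on the lists, had no probe under those names and were not analysed here. Alternatives covered scaling, background, spot summary, probes, filters and the deposited values. Python 3.11.15, numpy 2.4.6, pandas 2.3.3 and limma 3.58.1 in R 4.3.3 (for normexp) were used.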

Additional observations from a re-analysis of the deposited data

How the results depend on the processing

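Values are log2 differences, Col2a1Tsc1KO minus control, in the order miR-193a-3p, miR-193b-3p, miR-365-3p, and a value counts as moved when it shifts by over 1 SE over spots. The main values were 0.93, 1.69 and 0.94. Scaling gave 1.38, 2.14 and 1.39 with a 75th percentile taken from all probes, 1.04, 1.80 and 1.06 with the median, 1.16, 1.92 and 1.12 with quantile normalization, 1.34, 2.10 and 1.35 with none, and 1.29, 2.05 and 1.31 with spike-ins. Background correction gave 0.42, 0.92 and 0.64 with normexp and quantile normalization, and 1.13, 1.88 and 1.01 with the negative-control median subtracted. The software's total gene signal gave -1.46, 2.17 and 1.44, the sum of its probe totals 1.20, 1.87 and 1.14, and the deposited log2 values 1.50, 1.80 and 1.08. The median over spots gave 1.02, 1.71 and 0.97. The brightest probe gave 0.93, 1.65 and 0.98. With every spot well above background miR-193a-3p had no value and the others were 1.65 and 0.94, and with dim values at a floor they were 0.46, 1.69 and 0.94. With outlier spots kept they were 0.90, 1.72 and 0.97. Leaving out the probe of 16 or of 17 bases gave 1.65 and 1.72 for miR-193b-3p, and leaving out that of 21 or of 22 bases gave 0.98 and 0.91 for miR-365-3p. For miR-193a-3p, with 1 measured probe, this could not be run. The sum of probe totals and the negative-control subtraction were chosen after seeing the data.

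Of all miRNAs, 40 passed 2-fold higher and 45 passed it lower. The split was 61 and 12 with a 75th percentile taken from all probes, 59 and 13 with no scaling, 55 and 14 with spike-ins, 16 and 9 after normexp and quantile normalization, and 80 and 24 of 304 with total gene signals. The median of all miRNAs moved from its main value by 0.45, 0.41, 0.36, 0.20 and 0.51 in the same order, and by 0.20 with quantile normalization alone. The cause of these moves was not tested, except that a constant scaling adds a constant by construction. An offset of 50 added to both arrays narrows log2 differences by construction too, and its part in the normexp values was not measured. No paired analysis was possible because each group has 1 array. Arrays give no depth. Their number and the low signal over background of the miR-193a-3p probes limit the precision.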

Other observations

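The software's gene total exceeded the sum of its probe totals by over 1% for 92 of 348 detected miRNAs on the Col2a1Tsc1KO array and for 82 of 327 on the control array. Of the 3 miRNAs described here it did so for miR-193a-3p on the control array, at 7.77 times, with an excess of 82.3. The gene totals of miR-193b-3p were 115 on the Col2a1Tsc1KO array and 27.0 on the control array, and those of miR-365-3p were 122 on the Col2a1Tsc1KO array and 47.4 on the control array, all equal to their probe sums within that tolerance. In the deposited log2 values miR-193a-3p stood at 4.90 for Col2a1Tsc1KO and 3.40 for control, so the excess is not seen there.

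Within miR-193a-3p the probe of 16 bases, which did not count as measured, had a log2 difference of 1.29 ± 0.14, against 0.93 ± 0.06 for the probe of 17 bases. The spread over its spots on the log2 scale was 0.30 on the Col2a1Tsc1KO array and 0.45 on the control array, the widest of the 6 probes on each array. Negative-control spots kept a median of about 5 after background subtraction, and taking that median off moved miR-193a-3p to 1.13, miR-193b-3p to 1.88 and miR-365-3p to 1.01.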
